A study of Mus musculus with 16 samples.

Results

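The cell cycle genes followed here are 41 of the 48440 genes in the count matrices, taken as a list of symbols. The list itself uses no measured value, but it was drawn up with earlier results of these data in view. By role they fall into 22 genes of G2 phase and mitosis, 11 of DNA replication, 4 chromatin and tubulin genes that cycling cells and other cells share, 2 G1 cyclins and 2 inhibitors of cyclin-dependent kinases. All 41 were found in the matrices. The comparisons ask in which stromal and immune lineages of the lymph node (LN) these genes rose when the node drained a tumor.

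A cell that commits to division first raises its D-type cyclins, then makes the helicase subunits and nucleotide enzymes that copy DNA, and last the cyclins, kinases and motor proteins that separate the chromosomes. Inhibitors such as Cdkn1a and Cdkn1c hold the kinases back and are often high in cells that have left the cycle. In the resting LN, most stromal cells are not cycling, whereas the node enlarges after an immune challenge and its fibroblasts, lymphatic vessels and blood vessels can then proliferate along with activated lymphocytes.

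The data are single-cell RNA counts of inguinal LNs from 8-week-old C57Bl/6 mice, enriched for podoplanin (PDPN)-positive cells before droplet capture, in 16 libraries. MC38 is a mouse colon carcinoma line, and 500000 of its cells, live or killed with paraformaldehyde, were placed under the skin of the lower right flank. On day 12 the draining node (dLN) and the contralateral non-draining node (ndLN) were taken, which gave 3 libraries each of live dLN, live ndLN, fixed dLN and fixed ndLN, beside 4 libraries of naive nodes. The mice carried no transgene or deletion that the labels or methods name, each inoculated group came from 3 mice, and the tumor line is a single line. The number of naive mice is not given in the sources used here. The nodes were selected for PDPN, so that cell numbers do not stand for the makeup of a node.

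Some short promoter sequences were more frequent among these members than among other genes, and some differed in frequency between mitosis and replication members. They do not tell single members apart. RefSeq (GRCm38.p6) windows from 250 bases before to 50 bases after the transcription start were matched for 31 of the 41 members. The letters searched, on both strands, were TTTGAA and TTCGAA (the cell cycle homology region, CHR), CCAAT (the CCAAT box), and TTTGGCGC, TTTCGCGC, TTTCCCGC and TTTGCCGC (E2F). The CHR letters were present in 14 of 18 mitosis members (77.8%) and 2 of 10 replication members (20.0%), beside 21.7% of 27025 genes with a window of the same length. The E2F letters were present in 1 of 18 mitosis members (5.56%) and 4 of 10 replication members (40%), beside 2.60% of those genes. The CCAAT letters were found in 16 of 18 and 8 of 10, beside 41.1%. A match of letters is a description of the window and not a binding site. The 250 bases before the start are given for 4 mitosis members and 2 replication members whose values carry the comparisons that follow. They lie at chr4:118437344-118437593 (Cdc20, minus strand), chr10:69352913-69353162 (Cdk1, minus strand), chr11:99024190-99024439 (Top2a, minus strand), chr7:135716380-135716629 (Mki67, minus strand), chr1:128359706-128359955 (Mcm6, minus strand) and chr8:75109259-75109508 (Mcm5, plus strand). Each sequence is written 5′ to 3′ on the strand of its gene, and capitals mark the letters searched, on either strand, overlapping matches running together.
Cdc20: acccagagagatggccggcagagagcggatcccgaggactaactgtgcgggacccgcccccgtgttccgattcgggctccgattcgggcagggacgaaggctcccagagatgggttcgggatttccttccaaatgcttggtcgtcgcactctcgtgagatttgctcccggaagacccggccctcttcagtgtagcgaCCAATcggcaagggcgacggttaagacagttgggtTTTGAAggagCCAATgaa
Cdk1: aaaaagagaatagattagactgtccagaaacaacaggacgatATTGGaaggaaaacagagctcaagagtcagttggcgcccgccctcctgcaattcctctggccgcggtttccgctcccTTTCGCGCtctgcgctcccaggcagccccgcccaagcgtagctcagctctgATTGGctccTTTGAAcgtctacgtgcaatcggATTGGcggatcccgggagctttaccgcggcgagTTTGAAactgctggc
Top2a: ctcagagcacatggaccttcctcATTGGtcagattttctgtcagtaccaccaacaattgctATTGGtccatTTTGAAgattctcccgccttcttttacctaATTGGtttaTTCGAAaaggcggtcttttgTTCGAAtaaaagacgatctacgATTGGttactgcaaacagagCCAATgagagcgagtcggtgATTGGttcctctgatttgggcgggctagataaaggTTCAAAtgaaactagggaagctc
Mki67: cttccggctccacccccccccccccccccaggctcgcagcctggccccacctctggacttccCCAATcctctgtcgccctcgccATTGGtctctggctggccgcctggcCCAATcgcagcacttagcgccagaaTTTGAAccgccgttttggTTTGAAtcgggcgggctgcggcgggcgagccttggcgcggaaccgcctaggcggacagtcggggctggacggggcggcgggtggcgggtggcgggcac
Mcm6: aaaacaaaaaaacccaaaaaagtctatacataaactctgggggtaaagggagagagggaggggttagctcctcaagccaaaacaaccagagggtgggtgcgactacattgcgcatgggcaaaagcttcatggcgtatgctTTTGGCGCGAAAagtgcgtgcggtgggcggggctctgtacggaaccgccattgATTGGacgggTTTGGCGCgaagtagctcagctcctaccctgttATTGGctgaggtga
Mcm5: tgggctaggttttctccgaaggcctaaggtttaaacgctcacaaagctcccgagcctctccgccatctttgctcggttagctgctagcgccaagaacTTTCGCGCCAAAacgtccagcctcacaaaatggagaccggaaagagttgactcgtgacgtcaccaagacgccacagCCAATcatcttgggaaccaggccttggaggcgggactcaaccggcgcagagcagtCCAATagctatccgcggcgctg

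The capitals in the first 4 sequences are CHR and CCAAT letters, with an added E2F match in Cdk1. In the last 2 they are CCAAT and E2F letters. These 2 are among the 4 of 10 replication members with E2F letters.

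The 16 libraries held 68741 barcodes, of which 50386 passed as cells, with between 200 and 6000 genes found and no more than 30% mitochondrial unique molecular identifiers (UMIs). A library held 7486725 to 48945961 UMIs, with a median of 3421 to 5098 UMIs per kept cell. Cells were typed from lineage marker genes, none of them a cell cycle gene, and 38939 (77.3%) passed a gate. The gates held 13244 fibroblastic cells, 9437 lymphatic endothelial cells (LECs), 558 blood endothelial cells (BECs), 527 pericytes, 5395 B cells, 558 plasma cells, 1847 T cells, 3315 dendritic cells (DCs), 3118 macrophages and monocytes and 633 mast cells. The single markers of the fibroblastic gate were found in 68.5% to 95.7% of its cells and in 2.28% to 43.7% of the other gated cells. A total of 330 barcodes occurred in more than 1 library (663 cells).

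To ask how many cells carried mitotic transcripts, each cell was thinned at random to 2000 UMIs, shallower cells were left out, and cells with UMIs of at least 2 of the 22 mitosis members were counted. These are called mitosis-positive cells here, which is a count of detected transcripts and not a phase call. In fibroblastic cells the live dLN stood apart from every other group. The 3 live dLN libraries held 4.64% (67 of 1444 cells), 5.09% (71 of 1395) and 4.86% (49 of 1008). The live ndLN libraries held 1.02%, 0.704% and 0.608%, the naive ones 0.855%, 0.882%, 0.53% and 0.658%, the fixed dLN ones 1.05%, 0.48% and 0.914%, and the fixed ndLN ones 0.797%, 1.49% and 0% (0 of 155 cells, which allows a share of up to 1.94%, 3 counts of the total). No library outside the live dLN reached the lowest live dLN value. The mean was 4.86% ± 0.225 (SD, n = 3) in the live dLN and 0.779% ± 0.218 (SD, n = 3) in the live ndLN, a difference of 4.08 percentage points.

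LECs line the sinuses through which lymph enters the node. Their live dLN libraries held 3.49% (25 of 716 cells), 2.01% (14 of 697) and 3.94% (20 of 507) mitosis-positive cells. The live ndLN libraries held 1.27%, 0.362% and 0.637%, so the 2 groups did not overlap. The ranges were 0.201% to 1.33% in naive, 1.13% to 1.88% in fixed dLN and 1.00% to 2.45% in fixed ndLN, and the highest fixed ndLN library lay above the lowest live dLN library. The means of the live nodes were 3.15% ± 1.01 and 0.755% ± 0.463 (SD, n = 3 each), 2.39 points apart.

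BECs were few, and after thinning their mitosis-positive cells were found in the live dLN alone. There were 2 of 19, 1 of 13 and 1 of 10 thinned cells in its libraries (10.5%, 7.69% and 10.0%) against 0 of 413 in all other libraries, a count that allows a share of up to 0.726%. The median depth before thinning was 6358.5 UMIs per BEC beside 7330 per fibroblastic cell and 9012 per LEC. Without thinning, live dLN libraries of BECs held 6.25% to 16% and the other libraries 0% to 14.3%, so that these groups overlapped. Of the pericytes 4 of 369 were mitosis-positive, and of the mast cells 10 of 243.

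Immune cells carried mitotic transcripts in every group. Among the thinned cells, B cells had the highest shares. They held 37.3%, 39.6% and 37.1% in the live dLN and 27.7%, 27.0% and 22.1% in the live ndLN. In the fixed ndLN, replicate B reached 41.03% (16 of 39 thinned cells, exact 95% interval 25.6% to 57.9%), above the live dLN. All remaining libraries outside the live dLN held 15.5% to 29.9%. With a median depth of 1334 UMIs, only 2017 of 5395 B cells (37.4%) were deep enough to be thinned. That part was 37.8% in the live dLN and 40.3% in the live ndLN, beside 85.7% of all fibroblastic cells and 95.4% of all LECs. The B cell shares thus describe the deeper B cells alone, and the lineages are not ranked on like selections of cells. Plasma cells, the antibody-secreting descendants of B cells, held 17.3%, 23.2% and 33.9% in the live dLN and 4.69%, 5.56% and 6.90% in the live ndLN, with 0% to 13.3% in the 3 other groups. Macrophages and monocytes held 5.81%, 4.08% and 6.30% against 0.952%, 3.92% and 1.00%, and a fixed dLN library reached 5.30%. T cells held 8.11% to 8.62% in the live dLN and 4.76% to 7.76% in the live ndLN, within the range of 0% to 11.9% of the other groups. In DCs the nodes overlapped, with 4.27%, 6.11% and 1.14% in the live dLN and 5.71%, 5.47% and 4.20% in the live ndLN.

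**Figure D1:**
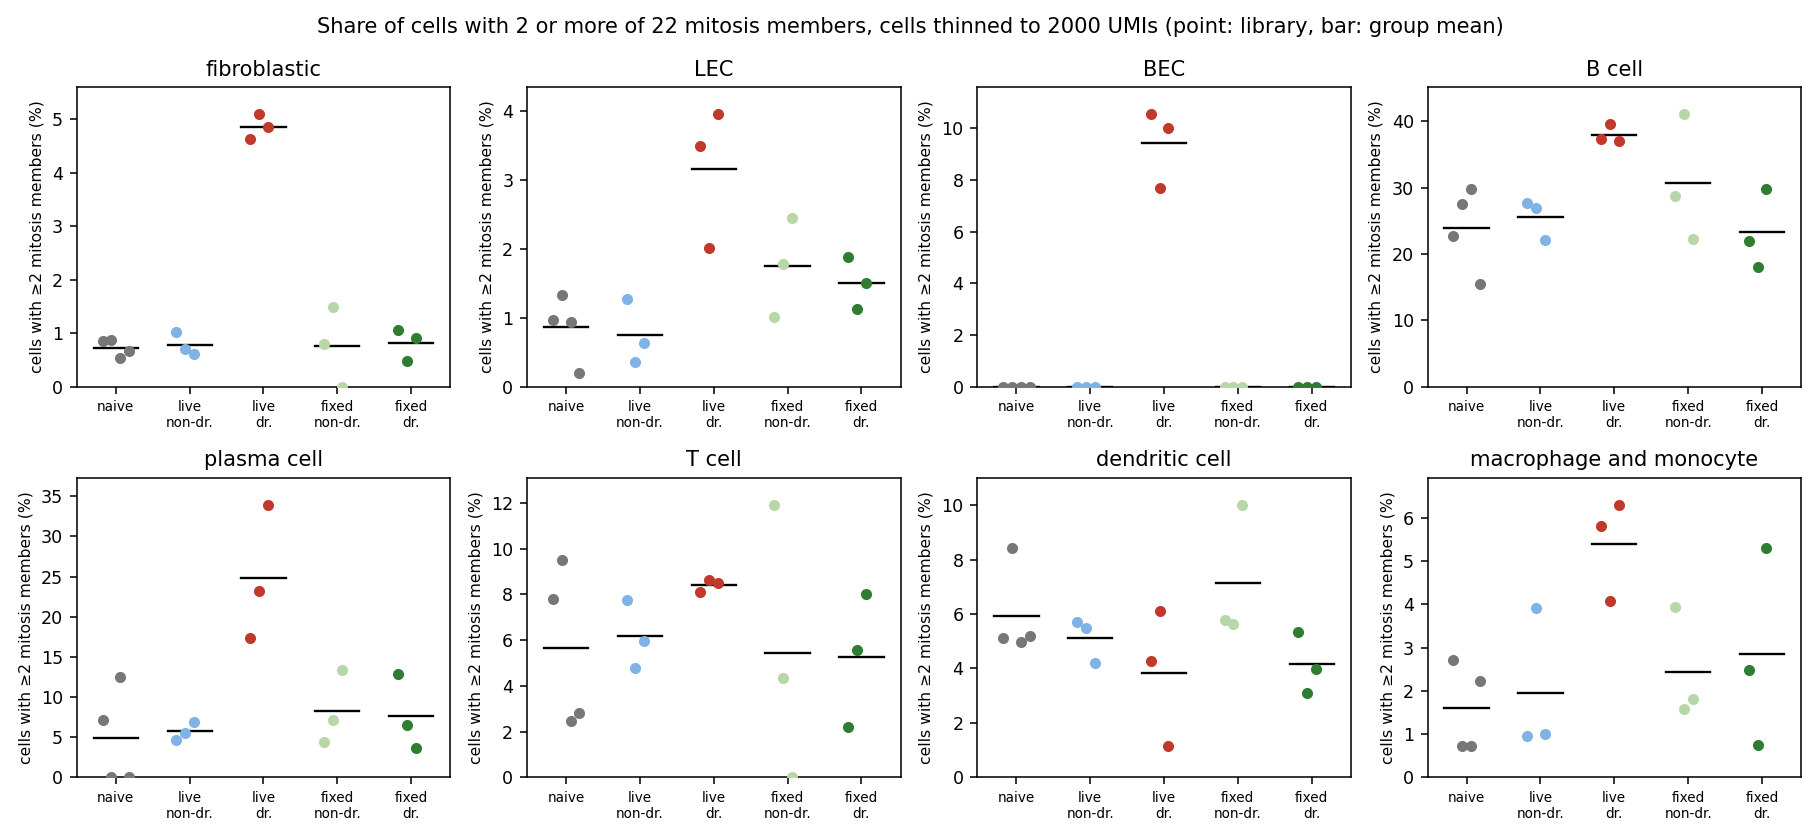
Percent of thinned cells (2000 UMIs) with at least 2 of the 22 mitosis members, per library, in 8 gated types, with 1 point per library and a bar at the group mean. The live draining points of fibroblastic cells (4.64% to 5.09%) stand above every other library, whereas those of B cells, T cells and dendritic cells lie among the points of other groups.

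Between the live nodes the libraries did not overlap in 7 of the 8 types tested, all but DCs. The two-sided exact permutation test then gave p = 0.1 in each of the 7, the smallest that 3 against 3 libraries allow (adjusted p = 0.114), and p = 0.7 in DCs. This design cannot reach 0.05, so no share was called. Against the 4 naive libraries, p was 0.0571 by the same exact permutation test (adjusted p = 0.0762), again the smallest possible, in 6 types, all but T cells and DCs. Between the fixed nodes p ran from 0.1 to 1 (exact permutation, adjusted p = 0.8 to 1). With both inocula permuted together, the draining nodes were 2.07 points higher in fibroblastic cells (exact permutation p = 0.045, adjusted p = 0.147), and no type passed the adjustment. The labels do not say which nodes came from the same mouse, and the p-values measure the spread between these libraries.

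Without thinning, which lets deeper cells show more members, the shares were higher and the live dLN of fibroblastic cells was apart again, with 20.2% to 21.1% in the live dLN and 5.90% to 9.37% in the other groups. LECs then held 11.4% to 15.9% in the live dLN and 3.40% to 6.21% elsewhere. Counting cells with at least 2 of all 41 members instead gave far larger shares, and at this depth Ccnd1 alone was found in 50.8% of the fibroblastic cells that were not mitosis-positive and in 70.0% of such LECs. Fibroblastic cells held 70.5% to 74.8% in the live dLN against 61.1% to 63.4% in the live ndLN on that count, and the fixed ndLN reached 71.3%. In BECs this wider count turned the direction between the live nodes, from 9.41 points higher to 5.66 points lower. In DCs it turned a difference of -1.29 points between the live nodes into a positive one.

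The limit of 6000 genes per cell removed 267 to 295 barcodes from each live dLN library and 15 to 91 from any other library. Of the 833 removed live dLN barcodes 185 (22.2%) were mitosis-positive, 97 of 464 among those in the fibroblastic gate.

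Within the fibroblastic cells of the live dLN, the marginal reticular cells (MRCs) under the subcapsular sinus had the highest share of the named subsets when libraries were pooled. MRC libraries held 8.02%, 10.2% and 10.9% mitosis-positive cells, 60 of 629 cells together (9.54%, exact 95% interval 7.36% to 12.1%, counting error only). T zone reticular cells (TRCs), the scaffold of the T cell area, held 30 of 1302 (2.30%, libraries 2.02% to 2.82%), and medullary reticular cells (MedRCs) 14 of 467 (3.00%, libraries 2.26% to 3.59%). The libraries of MRCs lay above all libraries of TRCs and MedRCs. Follicular dendritic cells (FDCs) held 7 of 80 (8.75%, libraries 4.76% to 12.0%), which overlaps MRCs, and perivascular reticular cells 4 of 169 (2.37%), with few cells in each. Cells that no subset gate took held 72 of 1200 (6%). MRCs thus made up 32.1% of the mitosis-positive fibroblastic cells of the live dLN and 16.4% of all its thinned fibroblastic cells. The median depth before thinning was 10263 UMIs in MRCs, 8123 in TRCs and 7754.5 in MedRCs.

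In the other groups MRCs held 3 of 133 mitosis-positive cells in the live ndLN (2.26%, libraries 0% to 6.67%), 3 of 241 in naive, 1 of 246 in fixed dLN and 0 of 62 in fixed ndLN, the last allowing a share of up to 4.84%. The subset gates rest on 2 or more markers, and the subsets were compared over cells of the same libraries with no test.

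Floor LECs, which line the subcapsular sinus on the side of the node's interior, held 17 of 406 in the live dLN (4.19%, libraries 2.10%, 3.03% and 9.18%) and at most 1.82% in any library of the other groups. Ceiling LECs held 9 of 579 (1.55%) and medullary LECs 5 of 293 (1.71%), near the fixed dLN values of 16 of 1069 (1.497%) and 5 of 274 (1.82%). Cortical LECs held 7 of 77 (9.09%), with 0% in 1 live dLN library and 15.4% in another. LECs that no subset gate took held 21 of 565 in the live dLN (3.72%, libraries 2.17% to 5.80%), which overlaps floor LECs. They made up 35.6% of its mitosis-positive LECs, and floor LECs 28.8%. Among T cells of the live dLN, those with a Cd8 UMI held 8 of 23 (34.8%) and those without 7 of 156 (4.49%). CD8 cells of the live ndLN held 7 of 46 (15.2%, libraries up to 25%), whereas the lowest live dLN library was at 16.7%, so that the nodes overlap.

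**Figure D2:**
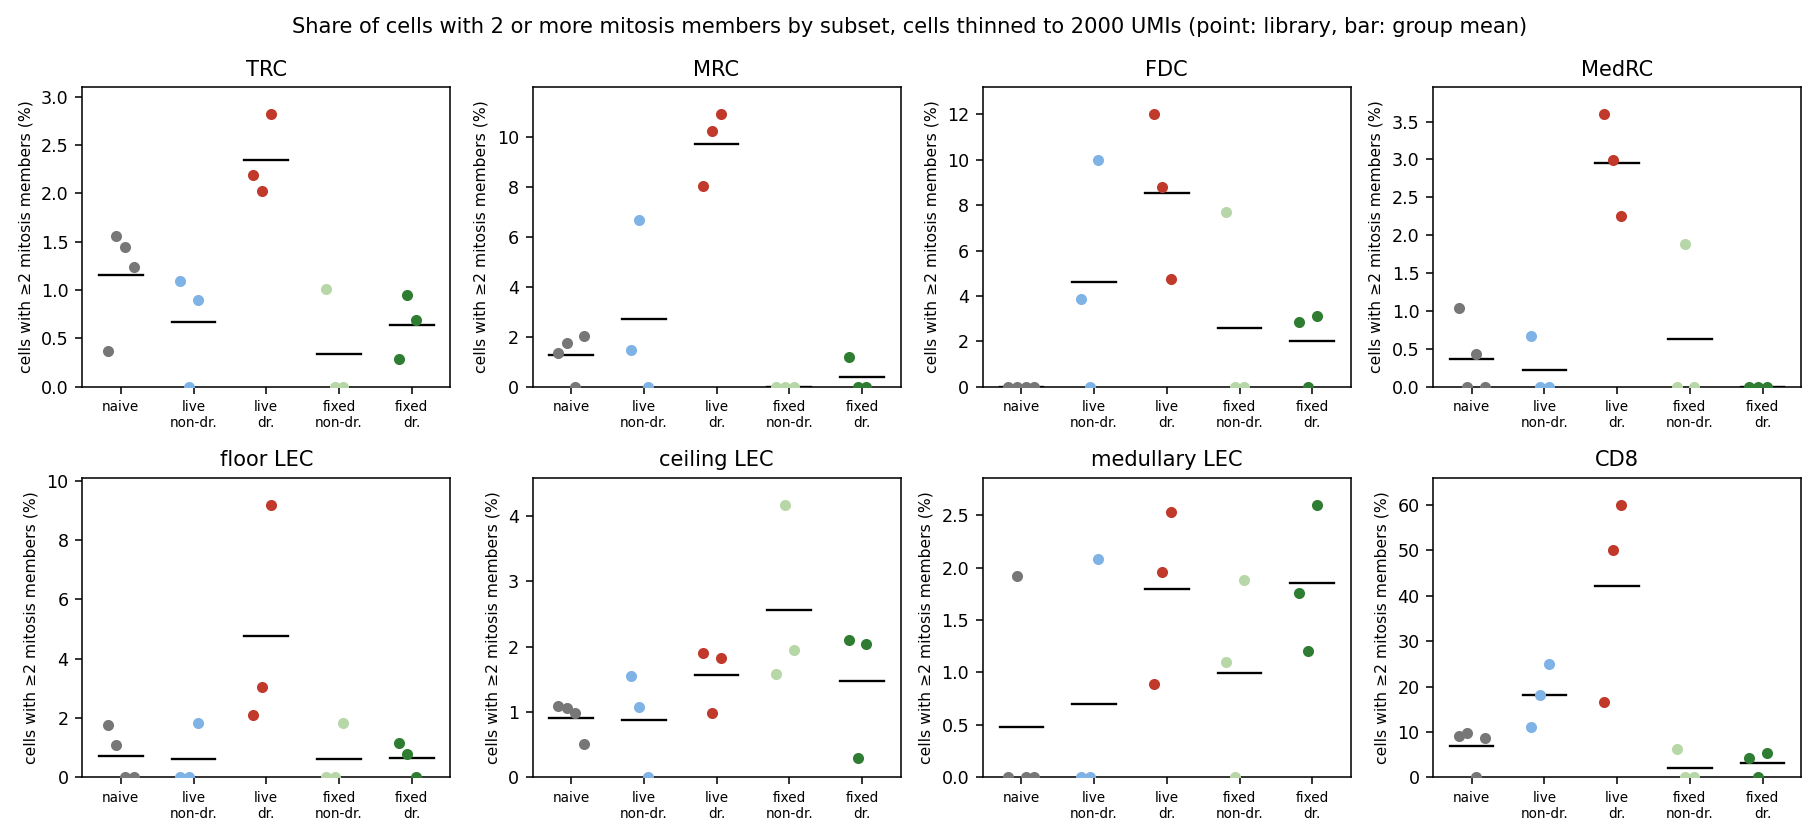
Percent of mitosis-positive thinned cells in 8 gated subsets, per library, with 1 point per library and a bar at the group mean. MRCs of the live draining nodes (8.02% to 10.9%) lie above all other MRC libraries (at most 6.67%), whereas ceiling and medullary LECs overlap between groups.

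UMIs were then summed per library and type and tested gene by gene in edgeR (quasi-likelihood, Benjamini-Hochberg over all genes tested, called at an adjusted p under 0.05), and levels are given as counts-per-million of the TMM-scaled library (CPM). In fibroblastic cells of the live dLN, 35 of the 41 members rose against the live ndLN and none fell, beside 15.3% of 15240 genes called higher and 12.7% called lower. The median log2 fold change was 1.59 over the members and -0.0029 over all genes tested. The share of members called is given beside that background and not tested against it. In bulk sums of a type, more cycling cells and more transcript per cell cannot be told apart.

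Of the 22 mitosis members 21 rose in fibroblastic cells. Mki67 (GRCm38, chr7:135689784-135716361, minus strand), the antigen read by Ki-67 staining, was at 24.4, 27.1 and 20.5 CPM in the live dLN and at 5.40, 0.644 and 3.05 in the live ndLN. Its log2 fold change was 2.77 ± 0.42 (SE, adjusted p = 4.9e-05), with naive libraries at 2.97 to 6.41. Top2a (chr11:98992943-99024189, minus strand), the topoisomerase that untangles chromosomes, was at 27.0, 28.8 and 27.1 against 3.54, 0.966 and 1.22 CPM (3.61 ± 0.59 log2, SE, adjusted p = 0.000113). All live dLN values of both genes lie above those of naive, live ndLN and fixed dLN, but fixed ndLN replicate B, with 40.2 CPM of Top2a and 20.1 CPM of Mki67, stands apart from its group (1.56 and 2.03 for Top2a in the other 2).

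Cdk1, the kinase that drives entry into mitosis, had 22.1, 23.8 and 22.04 against 8.09, 7.73 and 6.40 CPM (1.59 ± 0.16 log2, adjusted p = 2.45e-07), and Cdc20, which activates the anaphase-promoting complex, had 8.23, 6.86 and 8.73 against 1.35, 0.644 and 0.609 (3.02 ± 0.44, adjusted p = 2.84e-05). Both have CHR and CCAAT letters in the promoters printed above. Prc1, a bundler of spindle midzone microtubules, had 11.6, 13.1 and 8.12 against 2.19, 0.322 and 0 CPM. Cyclin B1 (Ccnb1) rested on 173 UMIs in the live dLN and 1 in the live ndLN, a ratio of 48.7 with an exact interval of 8.62 to 1933. The checkpoint kinase Bub1 rested on 75 and 3 UMIs (ratio 7.03, interval 2.32 to 34.9).

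The smallest mitotic change that passed was that of the spindle assembly factor Tpx2, with 27.6, 30.2 and 27.2 against 23.8, 18.7 and 21.9 CPM (0.38 ± 0.10, adjusted p = 0.00846). Bub1b, another checkpoint kinase, was the mitosis member that did not pass, with 14.6, 14.7 and 12.3 against 10.1, 12.9 and 11.3 CPM (0.31 ± 0.20, adjusted p = 0.272). The median over the 22 mitosis members was 2.21.

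Of the 11 replication members 9 rose in fibroblastic cells, with smaller changes (median 0.68). Tk1, a thymidine kinase, had 29.9, 34.2 and 32.7 against 15.8, 17.7 and 17.7 CPM (0.93 ± 0.10, adjusted p = 9.54e-07), and the naive libraries lay at 13.9 to 15.9. The helicase subunit Mcm5 had 12.3, 16.5 and 13.6 against 6.41, 5.80 and 3.66 CPM (1.36 ± 0.24, adjusted p = 0.000183), and Mcm6 had 21.8, 26.9 and 25.8 against 16.2, 13.9 and 15.8 (0.68 ± 0.12, adjusted p = 0.000161). Both have E2F letters in the promoters printed above. The subunit Rrm2 of ribonucleotide reductase had 5.22, 5.24 and 6.65 against 1.35, 0.644 and 0.914 CPM (2.42 ± 0.39). The helicase subunit Mcm4 (16.3, 19.8 and 19.3 against 14.8, 16.8 and 16.8 CPM) and Pcna, the sliding clamp of the DNA polymerases (36.4, 34.0 and 34.8 against 27.8, 31.2 and 34.1), did not pass, and their groups overlap.

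All 4 shared members rose in fibroblastic cells. Stmn1 (chr4:134468320-134473843, plus strand), a destabilizer of microtubules, had the smallest p of all members, with 52.5, 48.02 and 51.3 against 18.04, 13.2 and 10.97 CPM (1.77 ± 0.14, adjusted p = 6.92e-09). The histone variant gene H2afz had 326, 335 and 337 against 220, 216 and 171 CPM (0.71 ± 0.07), the tubulin Tubb5 324, 315 and 295 against 216, 214 and 191, and the chromatin protein Hmgb2 116, 122 and 128 against 72.3, 74.1 and 64.9. For these 4, every live dLN library lay above all 13 other libraries.

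The regulators of G1 moved less. Ccnd1 (chr7:144929931-144939925, minus strand), cyclin D1, rose by 0.35 ± 0.06 log2 (adjusted p = 0.000222), from 496, 501 and 441 CPM in the live ndLN to 617, 645 and 576 in the live dLN. The fixed dLN libraries (566, 571 and 612) and fixed ndLN libraries (521 to 586) reached the same range, and the naive ones lay lowest (425 to 460). Ccnd2 (295, 275 and 302 against 263, 309 and 282 CPM), Cdkn1a, known as p21 (30.6, 28.5 and 23.4 against 26.0, 23.5 and 13.4), and Cdkn1c, known as p57 (30.5, 34.8 and 29.4 against 33.2, 42.8 and 33.8), did not pass, and their live groups overlap.

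In LECs 27 of the 41 members rose between the live nodes and 1 fell, beside 17.2% of 14120 genes called higher and 15.8% called lower. The median log2 fold change was 1.22. Mitosis members accounted for 20 of the 27, while replication members contributed 3 of 11, namely Tyms, Tk1 and Rrm2. The medians of the 2 lists were 1.90 and 0.10, beside 2.21 and 0.68 in fibroblastic cells. Whether the 2 lineages differ was not tested.

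Top2a in LECs was at 44.2, 21.9 and 49.3 CPM in the live dLN and at 13.8, 3.20 and 2.89 in the live ndLN (2.20 ± 0.38, adjusted p = 8.11e-05). Mki67 had 20.7, 14.1 and 26.4 against 8.72, 1.60 and 2.52 CPM (1.93 ± 0.40, adjusted p = 0.000562). Live dLN replicate B was the lowest of its group and live ndLN replicate A the highest of its own in both genes, with no overlap. The fixed dLN libraries reached 23.8 CPM of Top2a, above live dLN replicate B. Birc5, the survivin of the chromosomal passenger complex, had 13.7, 7.46 and 16.9 against 3.60, 0.400 and 0.361 CPM (2.67 ± 0.61), and fixed ndLN replicate C had 19.6. Bub1 rested on 61 and 3 UMIs (ratio 9.25, interval 3.02 to 46.1). Cdc20 (8.998, 6.48 and 8.21 against 5.31, 3.60 and 1.44 CPM, adjusted p = 0.0827) and the kinetochore motor Cenpe (adjusted p = 0.101) did not pass.

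The replication helicase genes were not called in LECs. Mcm5 had 12.5, 9.53 and 15.1 CPM in the live dLN and 13.7, 10.4 and 9.74 in the live ndLN (0.06 ± 0.23), and Mcm6 had 30.04, 27.3 and 28.1 against 26.9, 23.2 and 28.9 (0.10 ± 0.10). Neither passed, and both overlapped between the nodes. Tyms, thymidylate synthase, did rise, with 39.5, 35.7 and 35.3 against 30.1, 18.01 and 19.5 CPM (0.62 ± 0.14, adjusted p = 0.00148), above all other libraries.

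The G1 regulators of LECs moved in both directions. Ccnd1 had the smallest p of all members in LECs, at 1209, 1217 and 1212 CPM in the live dLN and 876, 827 and 868 in the live ndLN (0.50 ± 0.06, adjusted p = 1.22e-06). The 10 libraries of naive and fixed nodes lay between 833 and 1042 CPM. Cdkn1a rose from 43.8, 38.4 and 31.0 to 56.3, 66.7 and 60.8 CPM (0.66 ± 0.13, adjusted p = 0.00036). Cdkn1c fell from 16.1, 14.0 and 19.1 to 11.5, 8.92 and 11.2 CPM (-0.65 ± 0.18, adjusted p = 0.00664), the single member that fell, and its live dLN libraries are the lowest of all 16. Stmn1, first among the members in fibroblastic cells, did not pass in LECs (73.1, 54.5 and 73.7 against 68.1, 50.8 and 45.4 CPM).

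**Figure D3:**
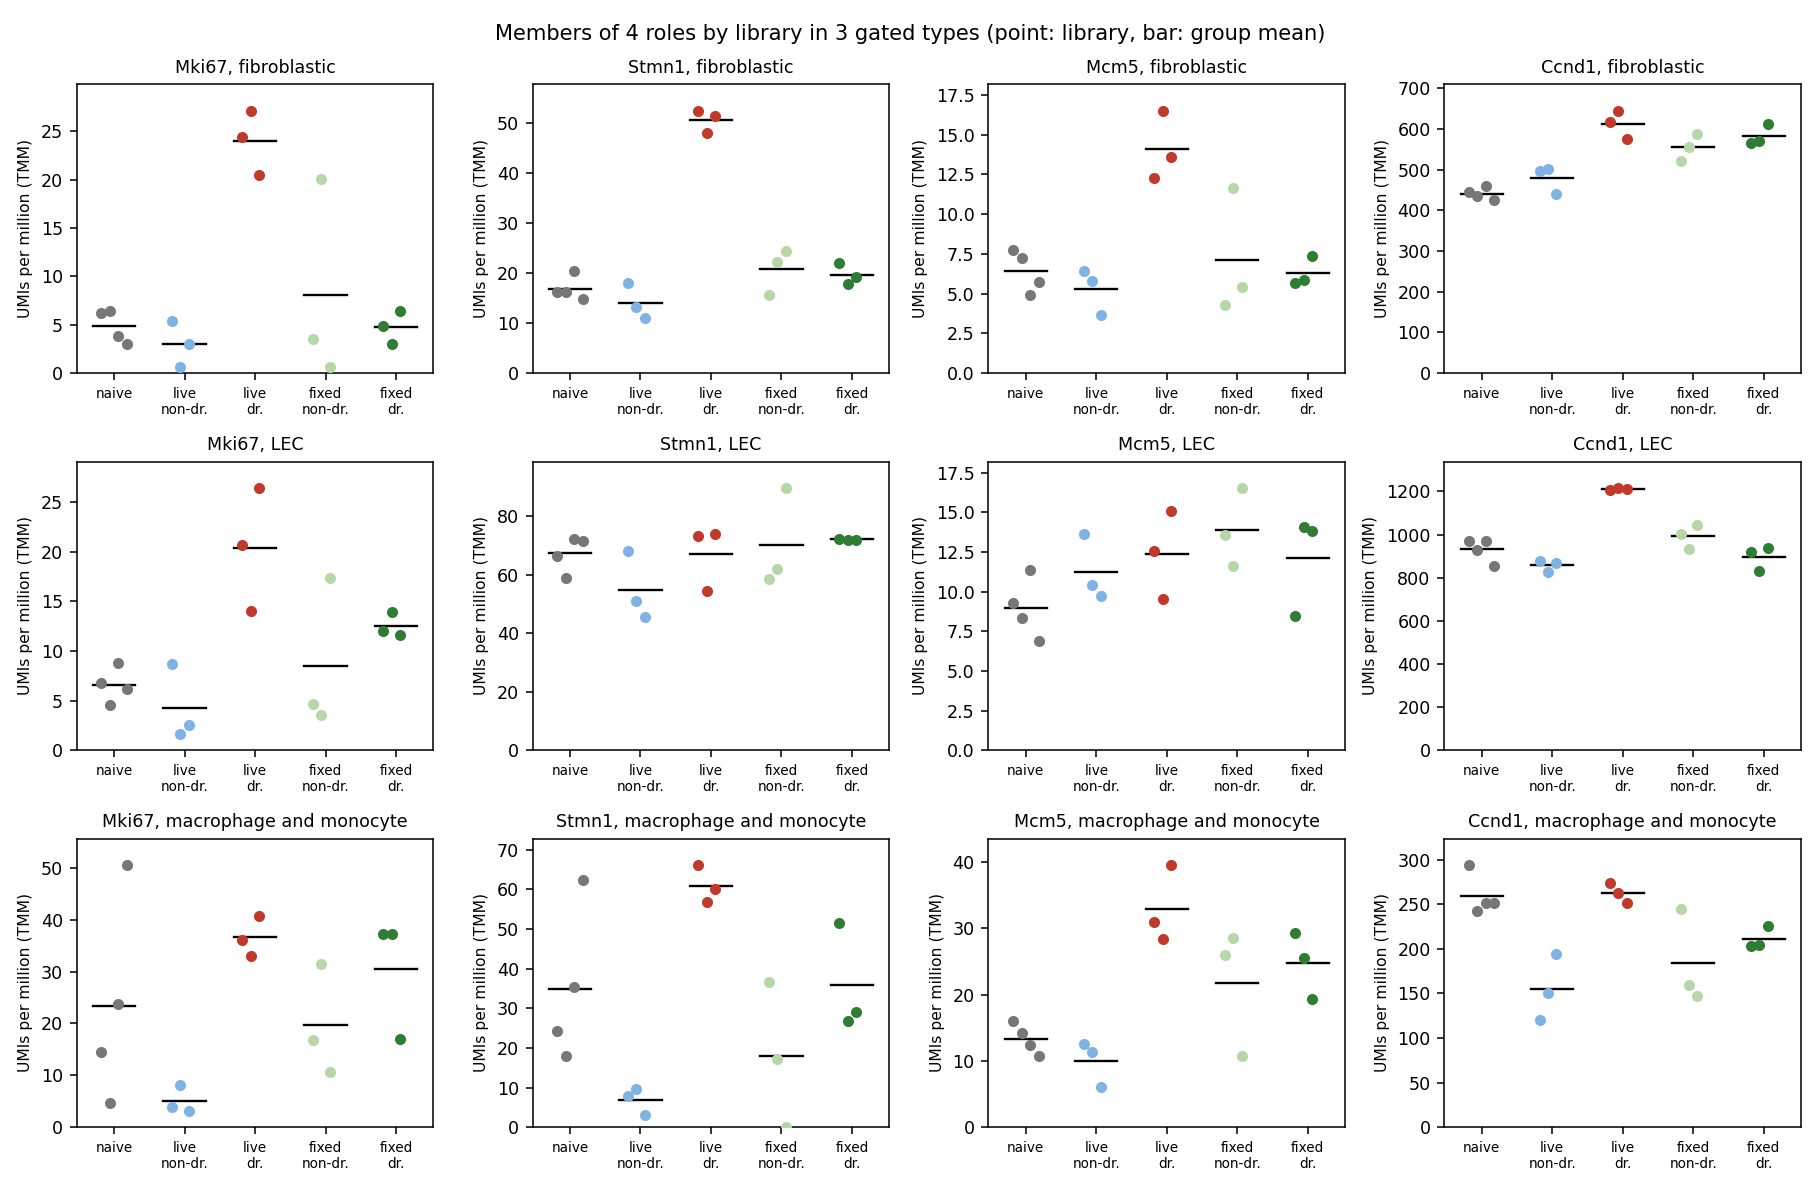
CPM (UMIs, TMM-scaled, on the vertical axes) of Mki67, Stmn1, Mcm5 and Ccnd1 per library in fibroblastic cells, LECs and macrophages and monocytes, with 1 point per library and a bar at the group mean. Mki67 of the live draining nodes lies above the live non-draining nodes in all 3 types, whereas Mcm5 of LECs overlaps (9.53 to 15.1 against 9.74 to 13.7).

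In macrophages and monocytes 31 of the 41 members passed the filter on low counts, which a gene can pass through the group where it is high alone, and 16 of those rose between the live nodes, beside 4.13% of 9814 genes called higher and 3.18% called lower. They were 7 mitosis members (Top2a, Mki67, Prc1, Cdk1, Birc5, Ube2c and Nusap1), 6 replication members (Mcm2, Mcm3, Mcm5, Mcm6, Rrm1 and Tk1), Stmn1, Tubb5 and Ccnd1. Stmn1 had 66.1, 56.7 and 59.9 CPM in the live dLN and 7.82, 9.67 and 3.07 in the live ndLN (3.10 ± 0.47, adjusted p = 0.000287). Mcm5 had 30.9, 28.4 and 39.6 against 12.5, 11.3 and 6.13 CPM (1.63 ± 0.28, adjusted p = 0.0011). In this type naive libraries held 17.95 to 62.3 CPM of Stmn1, which overlaps the live dLN and lies above the live ndLN, and the fixed nodes held 0 to 51.5.

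Ccnd1 likewise had naive values beside those of the live dLN, with 274, 263 and 251 CPM in the live dLN, 120, 150 and 195 in the live ndLN (0.79 ± 0.16, adjusted p = 0.00282) and 242 to 294 in naive nodes. The mitotic kinase gene Plk1, which was not tested, had 29 UMIs in the live dLN and 0 in the live ndLN, at least 3.89-fold higher against a floor of 3 UMIs over the group. DESeq2 called 9 of the 41 in place of 16, and edgeR called 8 without live ndLN replicate A and 9 without live dLN replicate A.

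The other immune types gave few or no calls between the live nodes. In DCs 38 members were tested. Ccnd2, cyclin D2, rose from 18.7, 13.6 and 29.7 to 73.8, 133 and 72.6 CPM (2.20 ± 0.24, adjusted p = 4.09e-06), and all other groups lay at 13.6 to 31.2. Top2a fell in DCs by 1.10 on the log2 scale (SE 0.32, adjusted p = 0.0435), from 83.9, 70.2 and 78.9 to 18.4, 54.9 and 34.4 CPM. Across all genes tested in DCs, 3.73% were called higher and 1.63% lower.

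In B cells 0 of 40 tested members passed in edgeR, beside 1.81% of 9620 genes called higher and 1.03% lower. At an unadjusted p under 0.05 of the same test, 13 members were higher and 2 lower. None passed in DESeq2, whereas 13 passed with no filter on low counts and 2 with a stricter gate (a larger lead over other lineages' markers). The share of all genes is not given for the unadjusted counts or for these other fits, so they have no background here. The smallest p belonged to cyclin A2 (Ccna2), at 54.7, 59.2 and 62.0 against 32.3, 36.4 and 37.4 CPM (0.74 log2, adjusted p = 0.057). Top2a had 443, 454 and 451 against 333, 322 and 262 CPM in B cells (adjusted p = 0.0787), and fixed ndLN replicate A had 507. In 18 of the 40 members every live dLN library lay above every live ndLN library, beside 11.2% of all genes tested.

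In T cells 0 of 35 tested members passed in edgeR, beside 4.36% of 8748 genes called higher and 2.66% lower. At an unadjusted p under 0.05 of the same test, 12 members were higher and 2 lower. DESeq2 called 0, whereas 15 passed with no filter on low counts, again with no background given. Tk1 had the smallest p, with 37.4, 40.3 and 50.6 against 23.5, 13.5 and 13.4 CPM (1.23 log2, adjusted p = 0.0747). In plasma cells 0 of 25 passed in edgeR, beside 0.265% of 4158 genes called higher and 0.938% lower. Unadjusted, 13 members were higher and 1 lower. DESeq2 called 1, whereas 15 passed with no filter, likewise with no background given. Rrm2 of plasma cells had 72.4, 35.2 and 42.6 against 3.25, 0 and 12.2 CPM (3.05 log2, adjusted p = 0.0649). Live libraries were fully apart, with the live dLN higher, in 20 of 35 members in T cells (13.9% of all genes tested) and 15 of 25 in plasma cells (12.7%). T and plasma cell members also passed the filter only in part, 35 and 25 of 41.

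**Figure D4:**
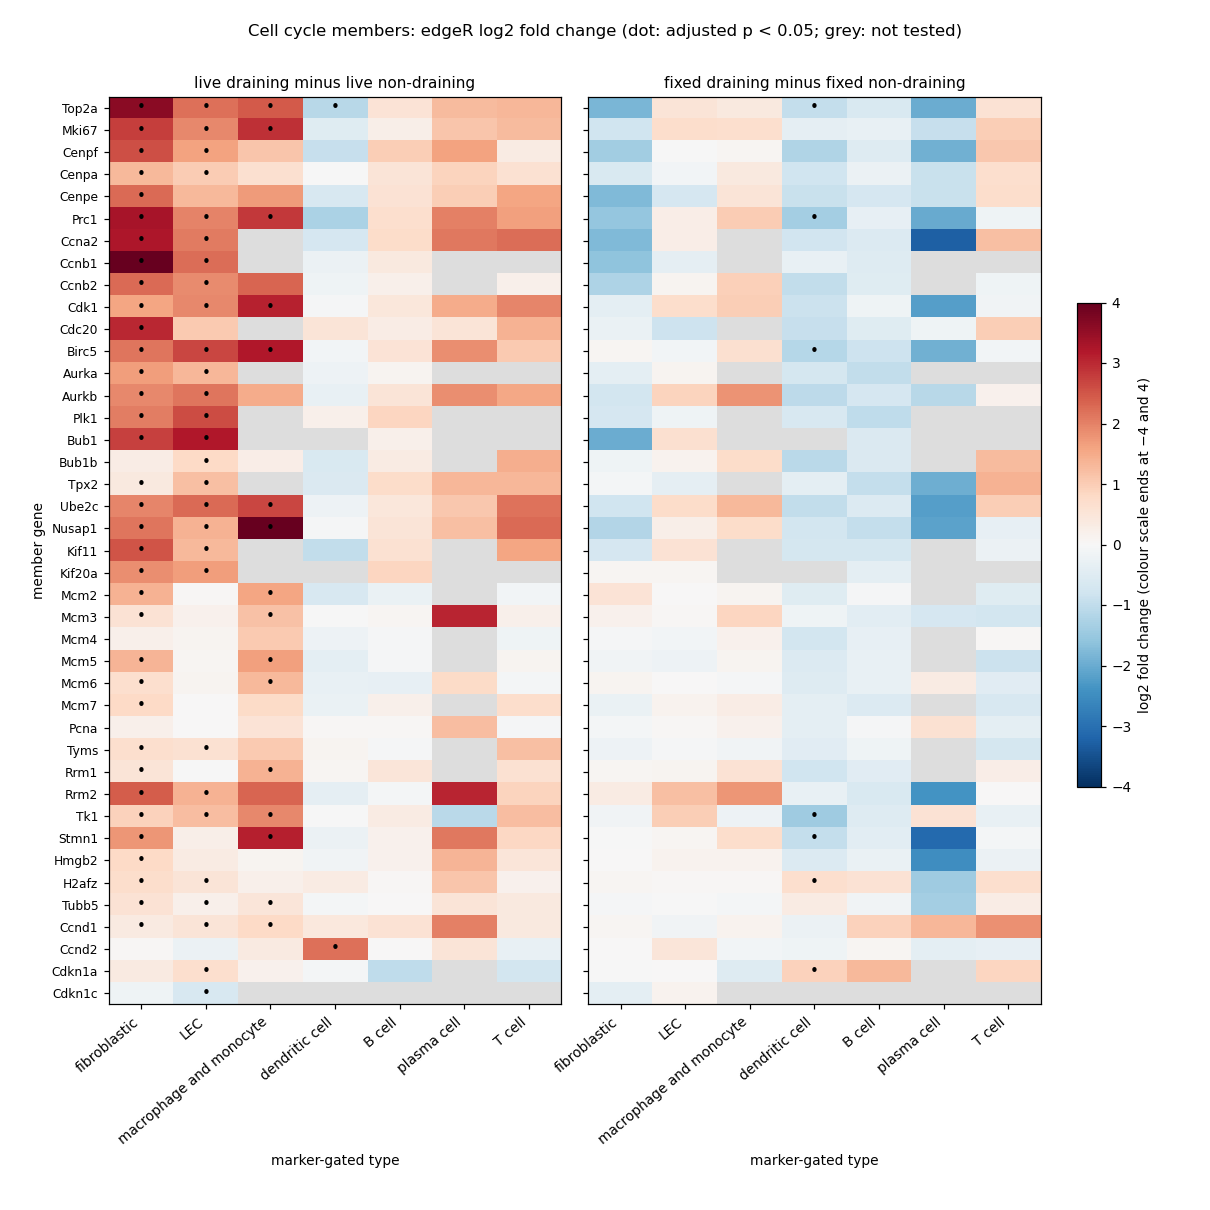
Log2 fold change of each of the 41 members between draining and non-draining nodes in 7 types, live inoculum at left and fixed inoculum at right, with dots at an adjusted p under 0.05 and grey where a member was not tested. Dots fill most of the live fibroblastic column (35 of 41) and LEC column (28 of 41) and appear in DCs alone (7) on the fixed side.

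Between the fixed nodes, the same edgeR fit called no member in 6 of the 7 types. In fibroblastic cells 0 of 41 passed (0 higher and 5 lower at an unadjusted p under 0.05, 0 in DESeq2), beside 0.0394% of genes called higher. LECs gave 0 of 41 (3 higher and 2 lower unadjusted, 0 in DESeq2), beside 1.21%, and macrophages and monocytes 0 of 31 (2 higher and 0 lower unadjusted, 0 in DESeq2), beside 1.08%. B cells gave 0 of 40 (3 and 9 unadjusted, 1 in DESeq2), plasma cells 0 of 25 (0 and 13, 3 in DESeq2) and T cells 0 of 35 (3 and 3, 1 in DESeq2). With no filter on low counts the fixed nodes gave 5 members in fibroblastic cells, 4 in LECs, 8 in B cells, 11 in plasma cells and 2 in T cells. These counts and those of DESeq2 do not separate higher from lower members. In the main fit the median log2 fold change of the tested members was -0.19 in fibroblastic cells and 0.09 in LECs. It was -0.47 in B cells, -1.41 in plasma cells and 0.01 in T cells, where a negative value is lower in the dLN. The main fit called 0.27%, 0.0481% and 0% of genes higher in B, plasma and T cells. It called 8 of 15240 genes lower in fibroblastic cells, 109 of 14120 in LECs and 151 of 9814 in macrophages and monocytes. In B, plasma and T cells it called 3 of 9620, 2 of 4158 and 0 of 8748 lower. For the unadjusted counts, DESeq2 and the fit with no filter, the share of all genes is not given.

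In DCs 2 members were higher and 5 lower in the fixed dLN, beside 4.2% of genes called higher and 1.72% lower. These calls depend on the gate: the stricter gate called 0 and the looser gate 2, and with single libraries left out the count ran from 2 (without fixed ndLN replicate A) to 10. H2afz rose by 0.67 ± 0.11 (SE, adjusted p = 0.000615), with libraries at 1112, 1251 and 864 CPM in the fixed dLN and 681, 701 and 651 in the fixed ndLN. Cdkn1a rose by 0.91 ± 0.16 (adjusted p = 0.000959), from 126, 107 and 86.1 to 176, 219 and 220 CPM. The members that fell were Birc5 (-1.15), Prc1 (-1.36), Stmn1 (-0.97), Tk1 (-1.41) and Top2a (-0.95). The fixed ndLN stands out here on both sides: its Cdkn1a and H2afz are the lowest of the 5 groups, and its Prc1 (24.3 to 30.7 CPM) the highest.

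The difference between the live and the fixed contrast was tested as an interaction. In fibroblastic cells the draining effect was larger after live cells for 22 of 41 members, beside 6.06% of 15240 genes, with the smallest p in Tubb5 (0.62), Stmn1 (1.80), Cdk1 (1.98) and Tk1 (1.07). Without fixed ndLN replicate B, whose Top2a rests on 76 of its group's 83 UMIs, 9 members were called. In LECs it was larger for 9 members (beside 11.4% of 14120 genes) and smaller for Cdkn1c (9.82%). The count ran from 4 to 22 when single live ndLN libraries were left out (22 without replicate A, 6 without B, 4 without C). B cells gave 4 members (beside 0.426%), plasma cells 8 (beside 0.625%) and macrophages and monocytes 1, Tk1 (beside 2.28%), all with a more positive effect after live cells. In plasma cells the member median was -1.41 log2 between the fixed nodes and 1.27 between the live nodes, and in B cells -0.47 and 0.31. These interaction values thus hold a fall between the fixed nodes beside a rise between the live nodes. In neither type was a member called in the live or the fixed contrast alone. The counts of B cells, plasma cells and macrophages and monocytes were less stable. With single libraries left out they ran from 0 to 5 in B cells, 1 to 12 in plasma cells and 0 to 3 in macrophages and monocytes, and in plasma cells no call was left with the stricter gate or with no upper limit on genes per cell. DCs gave Ccnd2 (2.39, beside 2.39% higher) and Cdkn1a (-0.99, beside 3.5% lower), and T cells Cdkn1a (-1.61, beside 1.98% lower).

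Other genes of the same pathways were read from lists that hold no member, with the shares of all tested genes called higher and lower between the live nodes as the background. In fibroblastic cells, where these are 15.3% and 12.7%, 30 of 33 tested genes of mitosis rose, with the midbody kinase Cit (2.91 log2), Spc25 (2.56), Cenpm (2.86) and Cdca8 (2.42) at the smallest p. Of 39 genes of replication 26 rose, among them Uhrf1, which maintains DNA methylation (3.08), the remodeler Hells (1.92), Gins2 (1.28) and cyclin E2 (Ccne2, 4.77). Of 22 G1 regulators 6 rose and 2 fell, with Cdk4 at 0.65, Mycn at 1.24, Btg2, an antiproliferative gene, at -0.93 and the pocket protein gene Rbl2 at -0.33. The 2 that fell are a smaller share than that background.

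In LECs, where 17.2% of all genes were called higher and 15.8% lower, 18 of 32 mitosis genes rose, led by Cks1b (0.92), Cenpw (1.19), Cks2 (1.64) and Ttk (2.82), and 6 of 37 replication genes, among them Uhrf1 (1.46), E2f1 (1.68), Rad51ap1 (1.77) and Rfc2 (0.31). The replication list thus had no larger share of calls than all genes tested. The G1 regulators of LECs were 3 higher and 5 lower, with Cdkn2b, another kinase inhibitor, at 1.24, Btg2 at -1.52, Btg1 at -0.34 and Myc at -0.48. In macrophages and monocytes (4.13% higher and 3.18% lower over all genes) 5 of 12 mitosis genes rose, with Cks1b (1.54) among them, 3 of 25 replication genes (Uhrf1 at 2.96, Orc6 and Rfc5), and of 20 G1 regulators none rose while Btg2 (-0.99) and Btg1 (-0.59) fell.

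The 19 members outside the mitosis list could be read in mitosis-positive and other cells at equal depth, with the 2000-UMI cells of all groups. Rrm2 had 55.2 times the UMIs per cell in mitosis-positive fibroblastic cells as in the others, 115 times in LECs and 35.7 times in B cells. Stmn1 had ratios of 15.7, 12.6 and 19.6, and Hmgb2 of 10.2, 15.2 and 9.62. Rrm2 had the highest ratio of the 19 in all 3 types. In fibroblastic cells and LECs, the ratios were 4.37 and 3.86 for H2afz, 3.27 and 1.98 for Tubb5, and 1.28 and 1.25 for Ccnd1.

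The G1 genes ran another way by lineage. In B cells Ccnd1 had 0.303 times and Cdkn1a 0.138 times the UMIs per cell in mitosis-positive cells as in the others. Cdkn1c was lower in mitosis-positive fibroblastic cells (0.387 times, 6 UMIs), whereas Cdkn1a was at 2.77 times the level of other cells in LECs and 0.767 times in fibroblastic cells. The direction of Cdkn1a varied between live dLN libraries. In LECs it had 0.36 against 0.0912 UMIs per cell in replicate A, 0.286 against 0.141 in B and 0.05 against 0.127 in C. In fibroblastic cells replicate A was higher (0.0896 against 0.0719), and B (0.0423 against 0.0710) and C (0.0204 against 0.0532) lower. Tk1 differed most between the 2 stromal lineages. Its ratio was 83.4 in LECs, where 57.9% of its UMIs lay in the 1.62% of cells that were mitosis-positive, and 4.58 in fibroblastic cells, where 9.21% of its UMIs lay in the 2.17% of such cells. These ratios pool cells of all libraries and carry no test.

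Mitosis-positive fibroblastic cells carried a median of 3 of the 22 mitosis members, LECs and B cells 5, and macrophages and monocytes 2. Their median depth before thinning was 8423 UMIs beside 9086.5 for other fibroblastic cells, 10385.5 beside 9484 in LECs and 6110.5 beside 4198 in B cells. A further 170 of 4551 cells outside the gates were mitosis-positive.

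A comparison added after seeing the data left out of the sums the cells with 2 or more mitosis members before thinning. This set is larger than the mitosis-positive cells, and deeper cells enter it more readily. In fibroblastic cells and LECs it took a larger part of the live dLN cells than of the other groups, as the shares without thinning show. The sums of the remaining cells show which of the 19 other members still differed between the live nodes. In fibroblastic cells 8 of the 14 calls were left, Stmn1 (0.99), Mcm2 (1.14), Mcm5 (0.67), Tk1 (0.66), Mcm7 (0.61), Tubb5 (0.43), H2afz (0.42) and Ccnd1 (0.26). Hmgb2 dropped from 0.78 to 0.17 (adjusted p = 0.0692). In LECs 6 of 8 were left, Cdkn1a (0.60), Tyms (0.60), H2afz (0.45), Ccnd1 (0.44), Tubb5 (0.19) and Cdkn1c (-0.51), while Rrm2 and Tk1 were too low to test. In macrophages and monocytes 1 of 9 was left, Ccnd1 (0.56). Of the other 8 there, Mcm2 kept most of its fold (1.57 with and 1.46 without those cells, adjusted p = 0.096), Tk1 was too low to test, and the remaining 6 had smaller folds, such as Stmn1 at 1.27 in place of 3.10. The members listed as left passed the same edgeR test at an adjusted p under 0.05. The share of all genes called in these reduced sums is not given, so the counts of calls left have no background. Whether fewer cells in the sums lowered the number of calls was not tested.

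The levels of the G1 genes differed widely between lineages. Levels are given here as CPM over all UMIs of the type, with no TMM scaling, as the median and range over the 16 libraries. Ccnd1 was highest in LECs (948, 831 to 1162) and BECs (767, 536 to 1263), which overlap, followed by fibroblastic cells (533, 430 to 636) and pericytes (445, 334 to 915), which overlap with each other and with BECs. DCs (268) and macrophages and monocytes (229) came next, and B cells (95.4), mast cells (78.8), T cells (77.5) and plasma cells (16.9) were lowest. Ccnd2 was ordered differently, with pericytes (907, 505 to 1213) and T cells (586, 440 to 814) highest and overlapping, fibroblastic cells next (318, 261 to 373) and LECs at the lowest median (21.1, 13.1 to 33.7), within the ranges of DCs (25.6) and of macrophages and monocytes (30.4). LECs thus had the highest median of Ccnd1 and the lowest of Ccnd2.

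Cdkn1a was highest in DCs (181, 86.2 to 223), at 39.4 in LECs and 24.8 in fibroblastic cells, and lowest in plasma cells (2.81). Cdkn1c was a stromal gene, with 33.9 (29.0 to 51.0) in fibroblastic cells, 29.8 in pericytes, 14.7 (8.47 to 20.9) in LECs and 9.62 in BECs, and a median of at most 1.76 in any immune type. LECs and fibroblastic cells did not overlap in Ccnd1, Ccnd2 or Cdkn1c over the 16 libraries.

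**Figure D5:**
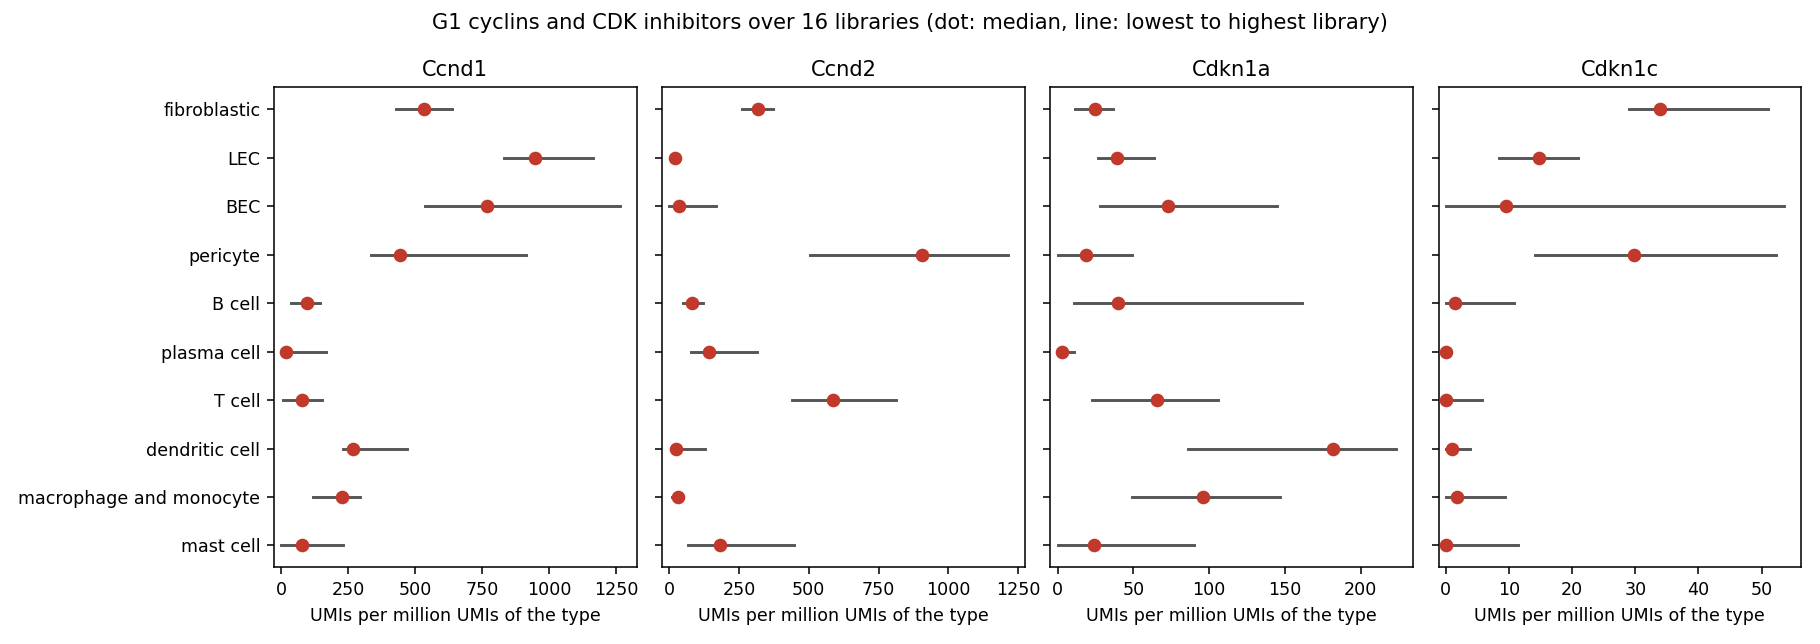
CPM of Ccnd1, Ccnd2, Cdkn1a and Cdkn1c (horizontal axes, linear and with their own scale for each gene) in 10 gated types, as the median (point) and range (line) over 16 libraries. Ccnd1 is highest in LECs (948) and Ccnd2 in pericytes (907), and LECs have the lowest median of Ccnd2 (21.1), within the ranges of BECs, DCs and macrophages and monocytes.

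In naive nodes, before any inoculum, the members already split by lineage. Mki67 had a median of 326 CPM in B cells, 5.11 in fibroblastic cells and 6.49 in LECs, and Hmgb2 895 in B cells, 573 in T cells, 394 in DCs, 82.7 in fibroblastic cells and 61.2 in LECs. H2afz was highest in DCs (1277) and mast cells (1147). Some members separated the stromal lineages at rest: Tk1 had 15.3 in fibroblastic cells and 1.53 in LECs, Tpx2 15.0 and 3.29, and Stmn1 16.4 and 69.4. Tk1, Tpx2 and Stmn1 thus differ between naive fibroblastic cells and LECs in both directions.

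Markers of other lineages moved with the live dLN in some gates, and their part in the results was not tested. In the LEC gate the summed level of 8 fibroblastic markers was 329 to 456 CPM in the live dLN and 86.3 to 233 in the other groups, that of 8 pericyte markers 321 to 350 against 95.4 to 145, and that of 7 plasma cell markers 276 to 287 against 186 to 219. In the fibroblastic gate 8 BEC markers had 352 to 377 against 219 to 305 CPM and 8 macrophage markers 71.8 to 81.2 against 20.7 to 75.4. The 8 B cell markers had 514 to 538 against 575 to 663 there. Of these, Ebf1 was found in 41.1% of gated cells outside the B cell gate, the rest in 1.01% to 6.50%. Their sum thus does not measure B cell transcripts alone. In the macrophage and monocyte gate 8 fibroblastic markers had 454 to 503 against 85.1 to 324. None of these summed levels was at 0 in any library.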

How the data were processed

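The authors deposited raw UMI counts per gene and barcode for 16 single-cell libraries (Chromium 3′ v3), made with Cell Ranger 3.0.1 on mm10 and not normalized. They were used as deposited, with no read realigned. Barcodes with 200 to 6000 genes and at most 30% mitochondrial UMIs were kept, the limits of the study's methods. No doublet caller was run, so doublets stayed in.

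A cell took the lineage, of 14, whose marker list led in the cell, with at least 3 markers found and a lead of 0.1 in the share of markers. Subsets needed 2 markers. The 41 members, the markers and the lists of other pathway genes were chosen with earlier results of these data known. For shares, cells were thinned to 2000 UMIs (seed 1), and libraries were compared with two-sided exact permutation tests and Benjamini-Hochberg adjustment over 8 types. UMIs were summed per library and type, with at least 10 cells, and fitted over all libraries with edgeR 4.0.16 (TMM, filterByExpr, quasi-likelihood, adjustment over all genes tested) in R 4.3.3. Intervals are exact 95% binomial intervals, a count of 0 is bounded at 3 counts of its total, and both cover counting error only. Figures, shares and intervals were computed in Python 3.11.15 with scipy 1.17.1.

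All 41 members could be named. Called members were given in full for at most 10 per type and comparison, smallest p first, and others by role where a sentence needed them. Of each list of other genes, at most 4 with the smallest p were named. Tests on simulated counts recovered 77% of 2-fold and 97% of 4-fold changes for fibroblastic cells between the live nodes (15009 genes), and 76% and 96% for LECs (13911 genes). Of the simulated calls 3.33% and 5.52% were unchanged genes. Far fewer genes were changed in the simulation than were called between the live nodes, so these rates may not carry over to the data. Top2a, Tpx2, Nusap1, Kif11, Mcm7, Rrm1 and Stmn1 overlap a small or unnamed RNA gene on the same strand in gencode vM21, so reads shared with it cannot be told apart. Alternatives were DESeq2 1.42.0, no filter on low counts, no upper limit on genes, at most 10% mitochondrial UMIs, a stricter gate (a lead of 0.25), thinning to 1000 UMIs or none, at least 3 mitosis members or 2 of all 41, replicate letters as a block and each library left out. A looser gate (2 markers), a block within inoculum, and sums without cells with 2 or more mitosis members before thinning were chosen after seeing the data.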

Additional observations from a re-analysis of the deposited data

Results flagged for a closer look

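Mitosis-positive dendritic cells of the naive nodes had 1 library far from the others, naive replicate B at 8.42%, by Dixon's test on the range of the 4 libraries. Chance marks about 1 in 20 such groups.

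The remaining values are members whose draining effect differed between live and fixed MC38 cells in the interaction term of the edgeR fit (adjusted p under 0.05), as log2 of the live effect minus the fixed effect. In fibroblastic cells they were Ccnb1 (6.95), Top2a (5.43), Ccna2 (4.99), Prc1 (4.83), Cenpe (4.02), Cenpf (3.98), Mki67 (3.56), Nusap1 (3.33), Cdc20 (3.27), Kif11 (3.20), Plk1 (2.73), Aurkb (2.68), Cdk1 (1.98), Cenpa (1.89), Stmn1 (1.80), Mcm5 (1.51), Tk1 (1.07), Mcm7 (1.04), Hmgb2 (0.76), H2afz (0.63), Tubb5 (0.62) and Ccnd1 (0.28). For many of these the fixed non-draining library of replicate B was high (Top2a at 40.2 CPM beside 1.56 and 2.03), and without it 9 members were called. The part of that library in the single values was not tested further.

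In LECs the values were Birc5 (2.80), Plk1 (2.79), Cdc20 (1.86), Top2a (1.69), Cenpf (1.63), Cdkn1a (0.66), Ccnd1 (0.65), Tyms (0.65), H2afz (0.47) and Cdkn1c (-0.78). In plasma cells they were Rrm2 (5.45), Stmn1 (5.22), Prc1 (4.04), Hmgb2 (3.85), Birc5 (3.76), Cdk1 (3.69), Top2a (3.25) and H2afz (2.53). Plasma cell levels of the fixed non-draining nodes overlapped those of the live draining nodes, for example Stmn1 at 15.4, 87.9 and 114 CPM beside 39.5, 43.7 and 56.8.

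B cells gave Tpx2 (1.67), Birc5 (1.37), Kif11 (1.32) and Top2a (1.16), macrophages and monocytes Tk1 (2.14), dendritic cells Ccnd2 (2.39) and Cdkn1a (-0.99), and T cells Cdkn1a (-1.61).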

How the results depend on the processing

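No member called in any type turned its sign under an alternative that was run. Counts of called members below name the type with the main count and the alternative count. The share of all genes called under each alternative is not given, and the counts do not separate higher from lower members. The causes of these moves were not tested.

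Between the live nodes, no filter on low counts gave B cells 0 and 13, plasma cells 0 and 15, T cells 0 and 15, and DCs 2 and 4. Between the fixed nodes it gave fibroblastic cells 0 and 5, LECs 0 and 4, B cells 0 and 8, plasma cells 0 and 11, T cells 0 and 2, and DCs 7 and 13. In the interaction it gave LECs 10 and 21, B cells 4 and 14, plasma cells 8 and 18, T cells 1 and 3, and macrophages 1 and 5. No upper limit on genes gave B cells 0 and 1, plasma cells 0 and 2, and DCs 2 and 1 (live), T cells 0 and 2 (fixed), and in the interaction fibroblastic cells 22 and 36, LECs 10 and 22, B cells 4 and 2, plasma cells 8 and 0, T cells 1 and 4, DCs 2 and 5, and macrophages 1 and 0.

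Both nodes were taken from each mouse, but the labels do not say that a letter marks a mouse, so the letters were not taken as pairs. Deviations of same-letter libraries correlated at -0.187 to 0.193. In 2 of 14 sets of a type and inoculum (LECs fixed, T cells live) every library correlated best with its own letter. That count was not tested against unpaired letters, so it does not show whether the letters mark mice. With the letters as a replicate block the counts were 4, 6 and 7 for B, plasma and T cells (live), 3 for plasma cells (fixed), and 8 and 4 for B cells and macrophages (interaction). The block within inoculum gave 3, 6 and 8 (live, same order), 1, 3, 2 and 11 for B, plasma and T cells and DCs (fixed), and 8 and 4 (interaction). Paired by letter, the fibroblastic share difference of 2.07 points had an exact permutation p of 0.125 in place of 0.045.

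A stricter gate gave 2, 1 and 7 for B cells, DCs and macrophages (live; macrophages 16 in the main setting), 0 for DCs (fixed), and 0, 0 and 1 for plasma cells, T cells and DCs (interaction). A looser gate gave 1 for DCs (live), 2 for DCs (fixed), and 1 and 0 for DCs and macrophages (interaction). At most 10% mitochondrial UMIs gave 1 for DCs (live), and 0, 0 and 2 for B cells, T cells and macrophages (interaction). DESeq2 gave 1, 1 and 9 for plasma cells, DCs and macrophages (live), and 1, 3 and 1 for B, plasma and T cells (fixed). Without cells with 2 or more mitosis members before thinning, the 19 other members gave 8 in place of 14 in fibroblastic cells and 1 in place of 9 in macrophages.

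Share differences are draining minus non-draining, in percentage points, over both inocula unless named. Fibroblastic cells (2.07) gave 2.79 with no gene limit, 1.74 and 2.03 with the stricter and looser gates, 1.27 with 3 members and 5.21 with 2 of all 41, where the exact permutation p was 0.05 to 0.07. DCs (-2.14) gave -1.98 with 3 members, -2.06 at 1000 UMIs and 6.47 with 2 of all 41 (unadjusted exact permutation p of 0.01, 0.025 and 0.01). Counting 2 of all 41 also gave LECs 0.726 (main -0.236), B cells 2.95 (-7.42), plasma cells 6.84 (-0.588), T cells 4.67 (-0.166), DCs 7.57 (-2.99) and macrophages -5.35 (0.400) for the fixed nodes, DCs 5.38 (-1.29) for the live nodes, BECs -5.66 live, -5.97 fixed and -5.82 over both (9.41, 0 and 4.70), and plasma cells 17.5 (9.25) over both. Without thinning, LECs were at 0.434 (fixed) and 4.97 (both; 1.08), BECs at -1.54 (fixed), DCs at 0.955 (live) and macrophages at 5.24 (both; 1.92).

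Leaving out each library in turn gave these ranges of called members. Live: fibroblastic cells 30 to 35, LECs 19 to 29, macrophages 8 to 14 (9 without live dLN replicate A, 8 without live ndLN replicate A), B cells 0 to 2, T cells 0 to 1, DCs 1 to 2. Fixed: T and plasma cells 0 to 1, DCs 2 to 10 (2 without fixed ndLN replicate A, 4 without fixed dLN replicate B or C or fixed ndLN replicate B). Interaction: fibroblastic cells 9 to 26, LECs 4 to 22 (22, 6 and 4 without live ndLN replicates A, B and C), B cells 0 to 5, plasma cells 1 to 12, T cells 0 to 2, DCs 2 to 4, macrophages 0 to 3. Share differences (live, fixed, both) ran from 3.97 to 4.21, -0.326 to 0.417 and 1.88 to 2.25 in fibroblastic cells, 2.00 to 2.96, -0.606 to 0.116 and 0.879 to 1.36 in LECs, 10.7 to 13.5, -11.6 to -2.23 and 0.389 to 5.09 in B cells, 14.5 to 22.8, -3.20 to 1.94 and 6.98 to 11.1 in plasma cells, 1.55 to 3.05, -2.88 to 3.08 and -0.313 to 2.66 in T cells, -2.42 to 0.0639, -3.74 to -1.56 and -2.71 to -1.42 in DCs, and 2.93 to 4.42, -0.828 to 1.45 and 1.30 to 2.44 in macrophages. BECs ran from 8.85 to 10.3 (live) and 4.42 to 5.13 (both). Depth limits the shares of types with few cells, such as BECs, where 1 cell moves a library's share by several points.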
